A study of Mus musculus with 4 samples.

Results

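The 39 genes described here build, regulate and move cholesterol and fatty acids, and were chosen by symbol from the 18854 genes of the deposited table. They fall into 5 groups: 7 enzymes from acetyl-CoA to farnesyl diphosphate (the mevalonate pathway), 12 enzymes from farnesyl diphosphate to cholesterol, 5 regulators of the SREBP transcription factors, 6 genes of sterol transport and turnover, and 9 genes of fatty acid synthesis. All 39 were present in the table, and all 39 passed the filter on low values. RNA sequencing was done on ribosome-depleted total RNA of cultured wild-type mouse cortical neurons kept 15 days in vitro. The 2 libraries of the p53 activator group came from neurons given Nutlin-3 for 2 days, a small molecule that keeps the ubiquitin ligase Mdm2 from binding p53. The 2 libraries of the other group are titled DMSO, the solvent, although their treatment label reads as untreated. Whether replicate libraries stem from independent cultures is not stated, and the p-values below reflect only the scatter of these 4 libraries, which could be technical.

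Cholesterol does not cross the blood-brain barrier, so brain cells make their own, and neurons also take up sterol made by astrocytes. When sterol in the endoplasmic reticulum runs low, Scap carries the SREBP precursors to the Golgi, where they are cut. The released fragments enter the nucleus and switch on the genes of sterol and fatty acid synthesis, while Insig proteins hold Scap back when sterol is plentiful. In liver and liver cancer cells p53 has been described as restraining SREBP2 through Abca1, an exporter of cholesterol.

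The control regions of these genes carry short sequences that SREBPs and their partners read. The bases before the RefSeq gene start (250 bases, build GRCm38.p6) were held for 30 of the 39 genes, in 38 windows, since 5 of these genes (Dhcr7, Insig2, Srebf1, Pmvk and Scap) have 2 or 3 listed starts. A gene was counted as holding a motif if any of its windows did, here and among all coding genes, so motifs of 1 gene can lie in different windows, as the E-box and the CCAAT boxes of Dhcr7 do. The genes with no entry were Sqle, Fdft1, Scd2, Abcg1, Stard4, Fads1, Scd1, Npc1 and Fdps. A sterol response element spelled TCACNCCAC was searched on both strands and was present in 1 of the 30, Hmgcs1. It was present in 1.20% of the tested protein-coding genes with a window. Only this spelling was searched, so a gene without it could hold the element in another spelling. The CCAAT box read by the SREBP partner NF-Y (CCAAT, both strands) was present in 23 of the 30 genes, or 76.7%, beside 41.0% of those protein-coding genes. The E-box CACGTG, which reads the same on either strand, was present in 7 of the 30, or 23.3%, beside 9.84%. The GC box GGGCGG, on either strand, was present in 25 of the 30, or 83.3%, beside 64.2%. A full p53 response element was found in none of the 30 genes and in 0.0588% of those protein-coding genes. This says only that these letters are not in these windows. Overlaps between motifs were not removed. Hmgcs1 is shown as the only gene of the 30 with that spelling of the sterol response element. Nsdhl is shown as a gene of the sterol branch that rose, by 0.30 to 0.36 on the log2 scale with any 1 library left out. Insig1 is shown for its E-box. Capitals mark the sterol response element, the CCAAT boxes (written ATTGG where they lie on the other strand) and the E-box.
Hmgcs1, chr13:119690101-119690350, plus strand: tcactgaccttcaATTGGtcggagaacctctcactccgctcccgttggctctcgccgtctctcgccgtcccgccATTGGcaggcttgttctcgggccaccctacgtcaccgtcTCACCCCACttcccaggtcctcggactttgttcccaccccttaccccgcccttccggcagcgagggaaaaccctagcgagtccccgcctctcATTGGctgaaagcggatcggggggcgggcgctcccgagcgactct
Nsdhl, chrX:72918271-72918520, plus strand: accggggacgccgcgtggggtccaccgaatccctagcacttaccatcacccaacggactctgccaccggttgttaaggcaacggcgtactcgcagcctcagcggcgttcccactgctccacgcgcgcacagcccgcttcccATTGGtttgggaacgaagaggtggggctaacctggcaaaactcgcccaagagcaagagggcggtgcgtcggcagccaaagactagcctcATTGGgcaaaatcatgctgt
Insig1, chr5:28071162-28071411, plus strand: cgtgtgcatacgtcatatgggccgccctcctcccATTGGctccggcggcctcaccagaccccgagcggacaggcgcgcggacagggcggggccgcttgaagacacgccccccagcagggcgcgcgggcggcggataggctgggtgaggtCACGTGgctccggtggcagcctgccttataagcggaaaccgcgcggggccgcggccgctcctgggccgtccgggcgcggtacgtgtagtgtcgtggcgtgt
The Hmgcs1 element lies 137 bases before the gene start, between CCAAT boxes at 176 and 45 bases.

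Values are CPM, the reads of a gene scaled to a common library total, and rest on 19065197 and 17716272 reads for the p53 activator libraries and 14584247 and 14968028 for the DMSO libraries. Each of the 39 genes had between 194 and 45263 reads in every library. Mitochondrially encoded RNAs took 8.98% and 10.01% of the listed reads in the activator libraries, against 15.7% and 14.3% in DMSO. Nuclear protein-coding genes took 83.2% and 82.7% with the activator, against 73.6% and 75.9% in DMSO, so CPM of coding genes moved with this shift in composition. Trp53, Mdm2 and Cdkn1a, which encode p53 and its best known targets, did not pass the test (log2 fold changes 0.07, -0.16 and 0.19).

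The question taken up here is how the lipid synthesis genes differed between the neurons given Nutlin-3 and the DMSO group. Small rises ran through every one of the 5 groups of genes. Of the 39 genes, 23 rose (59.0%, in limma on log2(CPM + 1) at an adjusted p under 0.05) and 0 fell. At an unadjusted p under 0.05 there were 30 higher and 0 lower, beside 22.5% of all genes higher and 20.2% lower, and 43.2% and 8.32% of coding genes at least as abundant as the lowest of the 39. edgeR and DESeq2 each called 14 higher and 0 lower (in DESeq2, beside 7.86% of all genes higher and 9.18% lower). At the adjusted threshold, 16.9% of all 16654 genes tested were called higher and 16.3% lower. Among nuclear protein-coding genes 21.2% were called higher and 7.19% lower. Among coding genes at least as abundant as the lowest of the 39, which had a mean of 15.4 CPM, 33.9% were called higher and 6.68% lower. The median log2 fold change was 0.24 over the 39 genes, beside 0.03 over all genes tested, 0.09 over coding genes and 0.15 over coding genes of that abundance.

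The sizes were modest. The ratio of group means ran from 0.97 for Acaca to 1.36 for Abcg1, and none of the 39 rose by 1.5-fold or more (0.108% of all genes tested did). Both activator libraries lay above both DMSO libraries for 32 genes (82.1%, beside 36.6% of all genes tested and 45.2% of coding genes), both lay below for Acaca alone (beside 30.9% of all genes and 19.8% of coding genes), and the groups overlapped for 6. These shares were not matched to the abundance of the 39. Such matching took the share of coding genes called higher from 21.2% to 33.9%. Summed over the 39 genes, CPM came to 9600 and 9696 in the activator libraries, against 7877 and 8399 in DMSO.

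**Figure D1:**
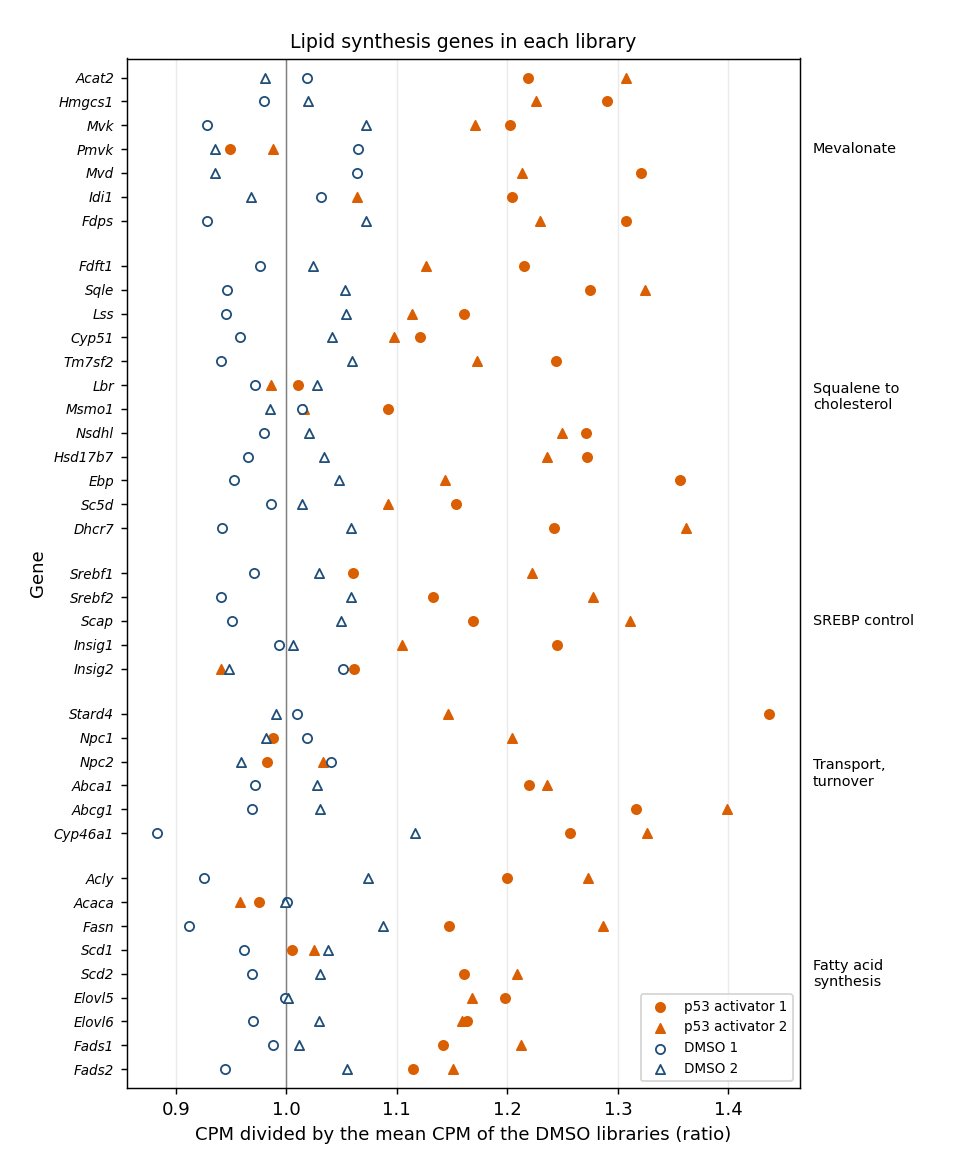
CPM of each gene in each library, divided by the mean CPM of the DMSO libraries (x axis, ratio), with genes down the page by pathway step. Filled orange points are the p53 activator libraries and open blue points the DMSO libraries. For 32 of the 39 genes both orange points lie right of both blue ones, and Acaca is the only gene with both to the left.

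The calls depended on the scaling. With the summed reads of nuclear coding genes as the library total, the median log2 fold change of coding genes was -0.05, in place of 0.09. On that scale 4 of the 39 rose, Sqle, Dhcr7, Abcg1 and Cyp46a1, and Acaca fell, beside 4.37% of coding genes higher and 13.1% lower (7.41% and 13.8% at the abundance of the 39). The median over the 39 genes was then 0.09. Aligned by cyclic loess, coding genes had a median of 0.02 and the 39 genes one of 0.07, with Dhcr7 and Abcg1 higher and Acaca and Scd1 lower, beside 5.03% of coding genes higher and 9.79% lower. With edgeR's TMM scaling 14 of the 39 rose, beside 10.6% of all genes higher and 16.1% lower, and 22.5% and 7.55% of coding genes at that abundance. After quantile normalization 12 rose, beside 9.80% of all genes higher and 11.6% lower. With a variance that did not follow expression 1 rose, beside 1.81% and 11.8%. Robust variances gave 25 (17.2% and 16.7%) and the replicate block 31 (22.2% and 18.8%). The count stayed at 23 with a pseudocount of 0.1 (16.7% and 16.1%) or 0.5 (16.8% and 16.3%), no filter (14.0% and 14.5%) or a minimum of 5 CPM (23.8% and 14.7%). Abcg1 was the only gene of the 39 called higher under all 16 alternatives tried. The number of rises was 15 without p53 activator replicate 1 (beside 10.2% of all genes higher and 15.4% lower) and 18 without p53 activator replicate 2 (11.7% and 11.0%). It was 8 without DMSO replicate 1 (7.10% and 8.52%) and 23 without DMSO replicate 2 (13.2% and 13.2%). Acat2, Sqle, Nsdhl, Dhcr7 and Abcg1 were called in each of those 4 fits.

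**Figure D2:**
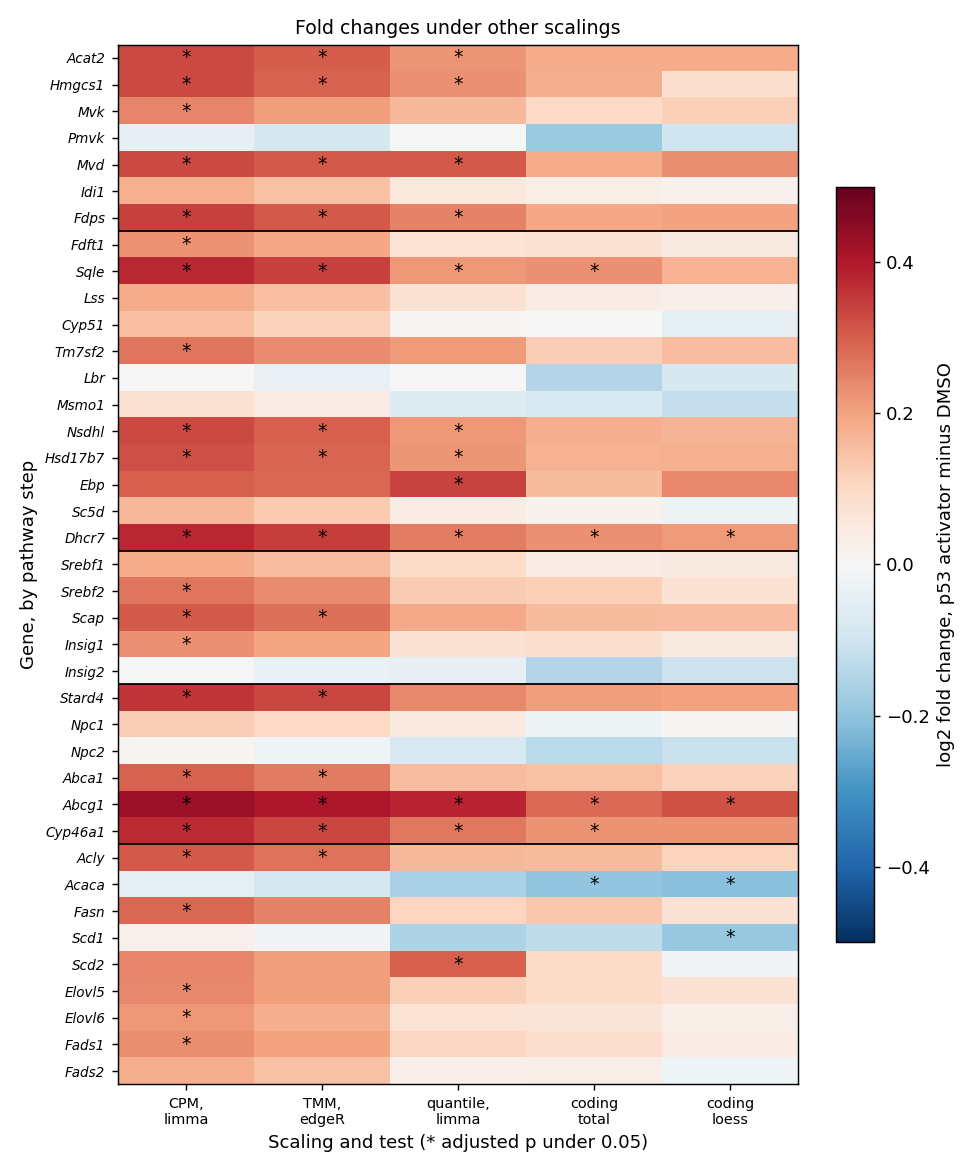
Log2 fold change of each gene (p53 activator minus DMSO, colour scale) under CPM with limma, TMM with edgeR, quantile normalization with limma, and coding genes alone, over their summed reads or by cyclic loess, both with limma. Stars mark an adjusted p under 0.05, of which there are 23 in the first column and 4 higher and 1 lower in the fourth.

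In the mevalonate pathway 5 of the 7 genes rose, with a median log2 fold change of 0.33. Hmgcs1, which condenses acetyl-CoA units into HMG-CoA and had the highest CPM of the 7, stood at 1627 and 1547 CPM in the activator libraries, against 1237 and 1287 CPM in DMSO. The groups did not overlap, and the log2 fold change was 0.33 ± 0.10 (SE; limma adjusted p = 0.00723). Acat2, the cytosolic thiolase that starts the pathway, had 81.1 and 87.0 CPM with the activator, against 67.8 and 65.3 CPM in DMSO (log2 fold change 0.33 ± 0.08, limma adjusted p = 0.000890). Fdps, which joins isoprene units into farnesyl diphosphate at the end of this segment, had 69.2 and 65.1 CPM with the activator, against 49.2 and 56.8 CPM in DMSO. Its log2 fold change of 0.34 was the highest of the 7. Mvd, which decarboxylates mevalonate diphosphate, had 32.3 and 29.6 CPM with the activator, against 25.99 and 22.8 CPM in DMSO. Mvk, the first mevalonate kinase, had 53.3 and 51.9 CPM with the activator, against 41.1 and 47.5 CPM in DMSO.
The other genes of this segment, Pmvk and Idi1, did not pass. Pmvk, the second kinase, had 14.8 and 15.5 CPM with the activator, against 16.7 and 14.6 CPM in DMSO, with overlapping groups and a 95% interval of the log2 fold change from -0.29 to 0.21. Idi1, which isomerises isopentenyl diphosphate, had 104 and 91.7 CPM with the activator, against 88.9 and 83.4 CPM in DMSO, without overlap (adjusted p = 0.0793 in limma). With any 1 library left out, the log2 fold change ran from 0.29 to 0.37 for Hmgcs1 and from 0.14 to 0.35 for Mvk. It ran from 0.24 to 0.42 for Mvd and from 0.24 to 0.44 for Fdps. The calls of all of these depended on which library was left out, while that of Acat2 did not. edgeR called 4 of the 7 higher, DESeq2 3 and quantile normalization 4, and over the coding total limma called 0, with 3 higher at an unadjusted p under 0.05.

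Between farnesyl diphosphate and cholesterol 6 of the 12 enzymes rose, with a median log2 fold change of 0.25. Of coding genes of the abundance of the 39, 33.9% were called higher (median 0.15). Fdft1, the squalene synthase, had 193 and 179 CPM with the activator, against 155 and 162 CPM in DMSO. Sqle, which oxidises squalene and is a slow step of the pathway, had 372 and 387 CPM with the activator, against 277 and 308 CPM in DMSO. It rose 1.30-fold, with a log2 fold change of 0.38 ± 0.08 (SE; limma adjusted p = 8.91e-05), the smallest p of the 39 genes. Dhcr7, the reductase that makes cholesterol from its last precursor, had 126 and 139 CPM with the activator, against 95.8 and 108 CPM in DMSO, and also rose 1.30-fold (adjusted p = 9.05e-05 in limma). Nsdhl and Hsd17b7 act in turn to remove methyl groups from the sterol ring. Nsdhl had 115 and 113 CPM with the activator, against 88.7 and 92.4 CPM in DMSO. Hsd17b7 had 81.8 and 79.4 CPM with the activator, against 62.1 and 66.5 CPM in DMSO. Both rose by about the same amount, with log2 fold changes of 0.33 and 0.32.
Tm7sf2 and Lbr encode sterol reductases that carry out the same reaction, and their values differed. Tm7sf2 had 39.7 and 37.4 CPM with the activator, against 30.0 and 33.8 CPM in DMSO, and rose (log2 fold change 0.27, limma adjusted p = 0.0248). Lbr, which is also an anchor of the nuclear lamina, had 20.8 and 20.3 CPM with the activator, against 20.02 and 21.2 CPM in DMSO, and its interval ran from -0.23 to 0.22. The difference between the pair was not tested.
Lss, Cyp51, Msmo1, Ebp and Sc5d did not pass either. Lss, which folds oxidised squalene into lanosterol, had 116 and 112 CPM with the activator, against 94.7 and 106 CPM in DMSO. Cyp51, the lanosterol demethylase, had 258 and 253 CPM with the activator, against 221 and 240.1 CPM in DMSO. Msmo1, the sterol methyl oxidase, had 261 and 242 CPM with the activator, against 242 and 235 CPM in DMSO, the smallest positive change of the branch (log2 fold change 0.07). The isomerase Ebp had 18.9 and 16.0 CPM with the activator, against 13.3 and 14.6 CPM in DMSO (log2 fold change 0.30). The desaturase Sc5d had 229 and 216 CPM with the activator, against 195 and 201 CPM in DMSO (0.17). In all 5 the activator libraries lay above the DMSO libraries, as in 45.2% of coding genes. For Msmo1 the lower activator library had 242.4 CPM and the higher DMSO library 242.1 CPM. Without DMSO replicate 1 the calls of Fdft1, Tm7sf2 and Hsd17b7 were lost, leaving 3 rises. Without p53 activator replicate 1 those of Fdft1 and Tm7sf2 were lost. edgeR and DESeq2 each called 4 of the 12 higher, and 2 were called over the coding total.

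**Figure D3:**
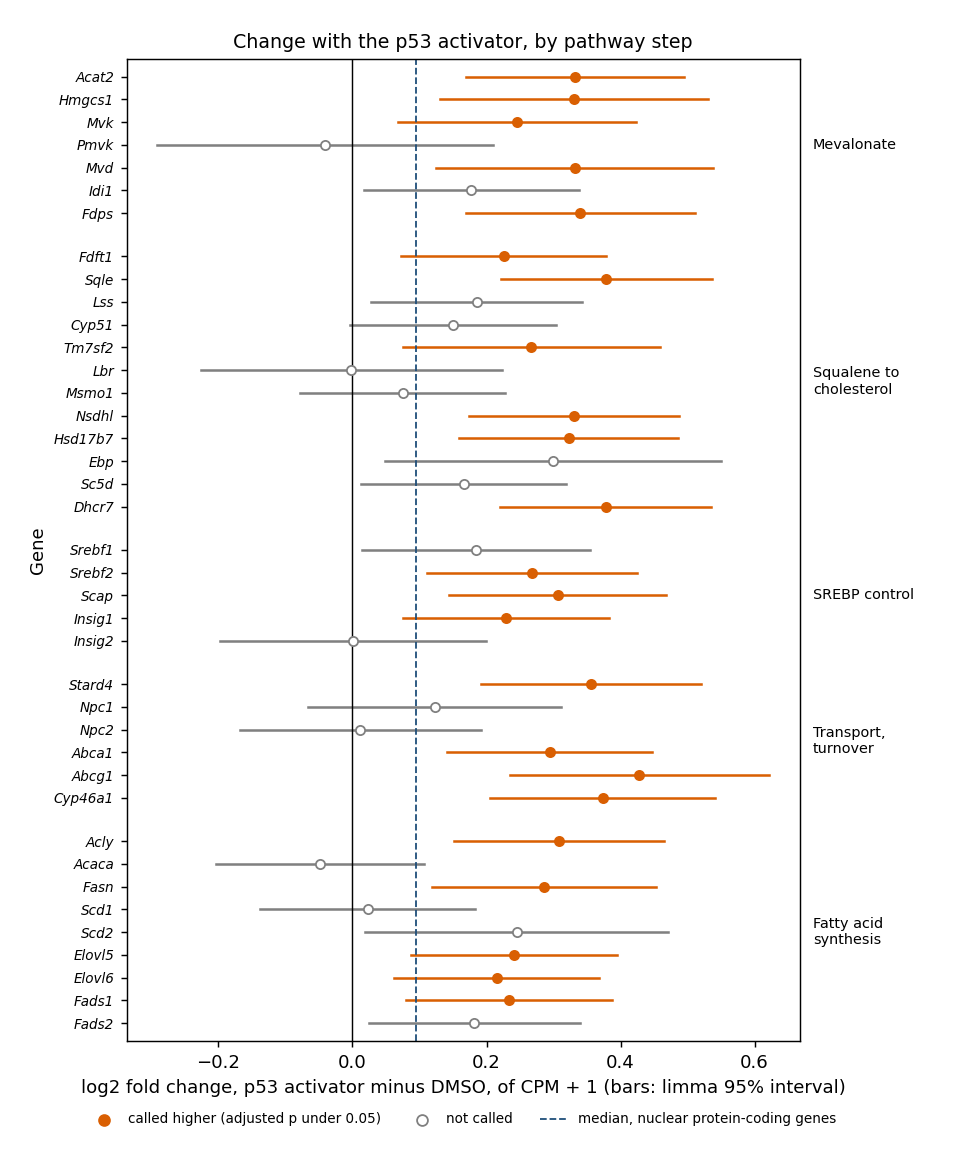
Log2 fold change of each gene on the log2(CPM + 1) scale (x axis, p53 activator minus DMSO), with limma's 95% interval as a bar and genes down the page by pathway step. Filled orange points are the 23 genes called higher, open grey points those not called, and the dashed line is the median of nuclear protein-coding genes, 0.09. The median of coding genes at least as abundant as the lowest of the 39, not drawn, was 0.15.

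Among the regulators, Srebf2, Scap and Insig1 rose. Srebf2, which encodes the SREBP that mainly drives sterol genes, had 272 and 307 CPM with the activator, against 226 and 255 CPM in DMSO (log2 fold change 0.27 ± 0.08 SE, limma adjusted p = 0.00544). Scap, the escort of the SREBPs, had 90.4 and 101 CPM with the activator, against 73.5 and 81.1 CPM in DMSO. Insig1, itself a target of SREBPs, had 208 and 185 CPM with the activator, against 166 and 168 CPM in DMSO. Srebf1, whose products mainly drive fatty acid genes, had 60.9 and 70.2 CPM with the activator, against 55.7 and 59.1 CPM in DMSO, and did not pass (adjusted p = 0.0859 in limma). Insig2, the other anchor, had 33.6 and 29.7 CPM with the activator, against 33.3 and 30.0 CPM in DMSO, and its groups overlapped.
Without DMSO replicate 1 the calls of Srebf2, Scap and Insig1 were all lost (adjusted p up to 0.190, 0.112 and 0.294 over the 4 leave-one-out fits in limma). Without p53 activator replicate 2 those of Srebf2 and Scap were lost, leaving 1 rise. The call of Insig1 was also lost without p53 activator replicate 1 and without DMSO replicate 2. edgeR and DESeq2 each called 1 of the 5 regulators, Scap. After quantile normalization and over the coding total limma called 0, with 1 and 1 higher at an unadjusted p under 0.05.

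Of the 6 genes of sterol transport and turnover, 4 rose (beside 33.9% of coding genes of the abundance of the 39) and the lysosomal pair did not. Abcg1, which loads cholesterol onto lipoprotein particles outside the cell, had 37.7 and 40.1 CPM with the activator, against 27.8 and 29.5 CPM in DMSO. It rose 1.36-fold, the largest fold of the 39 genes, with a log2 fold change of 0.43 ± 0.10 (SE; limma adjusted p = 0.000306). Abca1, the exporter that hands cholesterol to lipid-poor apolipoproteins, had 174 and 177 CPM with the activator, against 139 and 147 CPM in DMSO (log2 fold change 0.29 ± 0.08, limma adjusted p = 0.00166). Cyp46a1, the neuronal hydroxylase that turns cholesterol into a form that can leave the brain, had 85.7 and 90.4 CPM with the activator, against 60.2 and 76.1 CPM in DMSO. Stard4, which carries sterol through the cytosol, had 114 and 90.8 CPM with the activator, against 79.9 and 78.4 CPM in DMSO.
All 4 had both activator libraries above both DMSO libraries, as in 45.2% of coding genes, but single libraries carried part of the size. Without p53 activator replicate 1 the log2 fold change of Stard4 was 0.19 and its call was lost. Without DMSO replicate 1 that of Cyp46a1 was 0.21, and its call and that of Abca1 were lost. Npc1 and Npc2, which together pass cholesterol out of lysosomes, did not pass, and their groups overlapped. Npc1 had 36.9 and 45.0 CPM with the activator, against 38.1 and 36.7 CPM in DMSO (log2 fold change 0.12). Npc2 had 43.4 and 45.6 CPM with the activator, against 45.9 and 42.4 CPM in DMSO (0.01).

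Fatty acid synthesis was split. Of its 9 genes 5 rose, 2 more had non-overlapping groups without passing the test, and Acaca and Scd1 did not follow. Acly, which makes cytosolic acetyl-CoA for both branches, had 298 and 316 CPM with the activator, against 230.0 and 267 CPM in DMSO (log2 fold change 0.31 ± 0.08 SE, limma adjusted p = 0.00137). Fasn, the fatty acid synthase, had 488 and 547 CPM with the activator, against 388 and 462 CPM in DMSO (0.29 ± 0.08, limma adjusted p = 0.00538). Acaca, the acetyl-CoA carboxylase whose product Fasn uses, had 107 and 105 CPM with the activator, against 109.8 and 109.6 CPM in DMSO. In CPM this difference did not pass (log2 fold change -0.05, limma adjusted p = 0.671), and it was called lower over the coding total (-0.20, adjusted p = 0.0466) and by cyclic loess (-0.21, adjusted p = 0.0328).
The elongases Elovl5 and Elovl6, which lengthen unsaturated and saturated chains, rose by 0.24 and 0.22 on the log2 scale. Elovl5 had 137 and 133 CPM with the activator, against 114 and 114 CPM in DMSO. Elovl6 had 202 and 201 CPM with the activator, against 169 and 179 CPM in DMSO. Both had groups that did not overlap. Fads1, a desaturase of polyunsaturated chains, had 247 and 262 CPM with the activator, against 214 and 219 CPM in DMSO, and rose by 0.23. Its neighbour in the pathway, Fads2, had 355 and 366 CPM with the activator, against 301 and 336 CPM in DMSO, and did not pass (adjusted p = 0.0669 in limma).
Scd1 and Scd2 encode stearoyl-CoA desaturases, which make monounsaturated fatty acids. They resemble each other in sequence, so the authors' counting may have split or shared reads between them. Scd2, the main form in mouse brain, had 2374 and 2471 CPM with the activator, against 1982 and 2108 CPM in DMSO. In limma on CPM it did not pass the test (log2 fold change 0.24, limma adjusted p = 0.0869). Scd2 was called higher in DESeq2 (adjusted p = 0.0333) and after quantile normalization (limma adjusted p = 0.00242). The same held with robust variances and with the replicate block, while its log2 fold change was -0.012 with cyclic loess. Scd1 had 422 and 431 CPM with the activator, against 404 and 436 CPM in DMSO, and its groups overlapped. Without DMSO replicate 1 no gene of this group was called by limma, with 3 higher at an unadjusted p under 0.05, and without p53 activator replicate 2 there were 2 rises. edgeR called 1 of the 9 higher (Acly), DESeq2 2 (Acly and Scd2) and quantile normalization 1 (Scd2). Over the coding total 0 were called higher in limma, with 1 higher at an unadjusted p under 0.05.

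Ratios between genes of the same library do not depend on how libraries are scaled. For 8 pairs chosen after the values were seen, the reads of one gene were divided by those of the other. With 2 libraries against 2 the smallest two-sided p of an exact permutation test is 0.333, so these ratios are given as descriptions. Scd2 had 5.62 and 5.74 reads for each read of Scd1 with the activator, against 4.91 and 4.84 in DMSO. Insig1 had 6.20 and 6.21 reads per read of Insig2 with the activator, against 5 and 5.61 in DMSO. Fasn had 4.56 and 5.20 reads per read of Acaca with the activator, against 3.53 and 4.22 in DMSO. The Abca1 to Abcg1 ratio ran the other way, at 4.63 and 4.41 with the activator, against 5.01 and 4.98 in DMSO. The Srebf2 to Srebf1 ratio was 4.47 and 4.38 with the activator, against 4.06 and 4.31 in DMSO, also without overlap, while the ratios of Npc1 to Npc2, Elovl5 to Elovl6 and Fads1 to Fads2 overlapped between the groups.

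**Figure D4:**
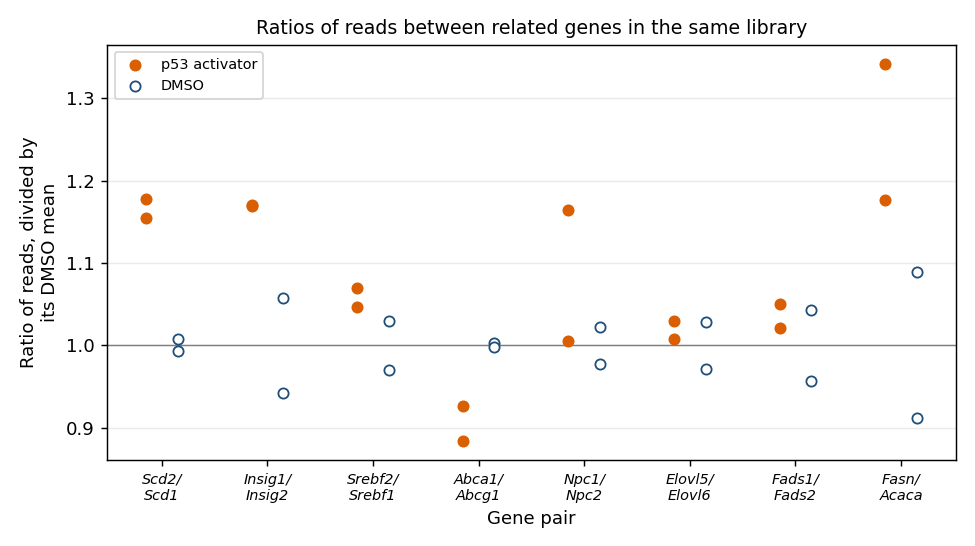
Reads of the first gene divided by reads of the second in the same library, for 8 pairs, each shown relative to its DMSO mean (y axis, ratio). Filled orange points are the p53 activator libraries and open blue points the DMSO libraries. The pairs were chosen after the values were seen, and the points of Scd2 and Scd1 lie apart while those of Npc1 and Npc2 overlap.

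Levels can be compared between genes only per length, so mean CPM was divided by the merged exon length of each gene in GENCODE vM21. That length joins the exons of all listed transcripts of a gene (11317 bases for Npc1), and another choice of length could change the order. On that scale Scd2 stood at 443 CPM per kilobase with the activator and 374 in DMSO, and Hmgcs1 at 345 with the activator and 275 in DMSO. Fads2 followed at 109 with the activator and 96.6 in DMSO, and Scd1 at 87.2 with the activator and 85.8 in DMSO. Npc1 had the lowest level per kilobase in both groups, at 3.62 with the activator and 3.30 in DMSO. Next came Lbr with the activator (4.32, against 4.33 in DMSO) and Abcg1 in DMSO (5.33 with the activator, against 3.93 in DMSO).

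Lists of genes next to these pathways were counted in the same fit, to be read beside the 21.2% of coding genes, and 33.9% of coding genes of the abundance of the 39, that were called higher. Of 14 genes of the isoprenoid branches that leave the mevalonate pathway, 6 rose and 2 fell. Nus1, a subunit of the enzyme that makes dolichol chains, and Icmt, which methylates prenylated proteins, rose with log2 fold changes of 0.32 and 0.31. The 2 that fell, named after their values were seen, were Pdss1 (-0.37) and Coq2 (-0.30), which build the side chain of ubiquinone and attach it. The number of falls was 0 in DESeq2 and without DMSO replicate 1, and 1 without any one of the other libraries. Of 13 tested genes of SREBP processing and sterol sensing 5 rose, among them the protease Mbtps2 (0.28), which makes the last cut of the SREBPs. Of 19 genes of sterol uptake, esterification and exchange 7 rose, with the lipoprotein receptor Lrp1 at 500.4 and 598 CPM with the activator, against 388 and 425 CPM in DMSO (log2 fold change 0.43), and the lysosomal protein Scarb2 higher by 0.30. Of 26 other genes of fatty acid synthesis, elongation and activation 7 rose, with Mcat, the malonyltransferase of mitochondrial synthesis, higher by 0.45 and the elongase Elovl4 by 0.32. In DESeq2 the rises in these 4 lists were 1, 1, 2 and 3. Over the coding total at most 1 gene of each list rose, and without DMSO replicate 1 at most 2 did.

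Markers of the cell types a cortical culture can hold moved unequally. Of 10 neuronal markers 8 rose and Rbfox3 fell, with a median log2 fold change of 0.41. In the same fit 21.2% of coding genes were called higher and 7.19% lower, and 33.9% and 6.68% at the abundance of the lipid genes. Over the coding total 7 neuronal markers were higher and 2 lower (median 0.26), beside 4.37% and 13.1% of coding genes. With cyclic loess 4 were higher and 2 lower (median 0.18), and with a variance that did not follow expression 3 were higher and 0 lower. Their summed level was 8583 and 8720 CPM with the activator, against 7249 and 8065 CPM in DMSO. Map2, the most abundant of them, had a log2 fold change of -0.11 and did not pass. Of 11 tested astrocyte markers Slc1a2 alone rose (0.26). No astrocyte marker was called in edgeR, after quantile normalization, on either scaling of coding genes, with no filter, or without p53 activator replicate 1, p53 activator replicate 2 or DMSO replicate 1, while 3 were called with the replicate block. The summed level was 3170 and 3157 CPM with the activator, against 2804 and 2736 CPM in DMSO. Of 7 tested markers (9 in edgeR) of the oligodendrocyte lineage, led by Olig1 (0.17), 0 passed in limma, edgeR or DESeq2. In limma 3 were higher at an unadjusted p under 0.05. With the replicate block limma called 2 higher, and after quantile normalization 1. The summed level of the 9 listed was 203 and 202 CPM with the activator, against 183 and 179.9 CPM in DMSO. Microglial and vascular markers were scarce, at 11.96 and 10.95 CPM with the activator, against 12.3 and 11.6 CPM in DMSO, for 4 listed microglial genes. Of the 3 tested (4 in edgeR), 0 passed in limma, edgeR or DESeq2, and 1 was lower at an unadjusted p under 0.05 in limma. With robust variances, with the replicate block and over the coding total, limma called 1 lower. The 4 listed vascular genes summed to 6.504 and 7.56 CPM with the activator, against 8.43 and 6.15 CPM in DMSO, led by Pdgfrb. Kdr, at 1.10 and 1.24 CPM with the activator, against 0.343 and 0.601 CPM in DMSO, was called higher in limma, and no gene of this list was called higher in edgeR, in DESeq2, over the coding total or without any 1 library. Tek went the other way, at 0.629 and 0.508 CPM with the activator, against 1.30 and 1.20 CPM in DMSO (log2 fold change -0.52). It did not pass in limma (adjusted p = 0.0524). Limma called 1 vascular gene lower with other pseudocounts, no filter, the coding total, the replicate block, or a variance that did not follow expression. Pdgfrb (-0.28) and Rgs5 (0.33) did not pass. Other markers of these lists, such as Mog, Mag, Cx3cr1 and Cldn5, were not analysed here. The part of these markers in the changes of the lipid genes was not tested, and in bulk RNA more cells of a type and more RNA per cell cannot be told apart.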

How the data were processed

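The authors deposited CPM per gene and library in 1 table. No header names this unit; each column's values are multiples of a single step, and dividing by it returned whole reads (100% of values, tolerance 0.01 reads). Per the submitters' processing notes, TopHat2 (no version), Cufflinks 2.0.0 and mm9 were used in roles that are not stated. The counter, strandedness and annotation are not stated.

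A gene was tested if 2 or more libraries had 1 CPM or more (16654 of 18854). The difference of log2(CPM + 1) between groups was estimated by limma 3.58.1 (R 4.3.3), with an expression-dependent variance prior and two-sided p-values adjusted by Benjamini-Hochberg over all genes tested. This scale understates the change of low genes. With 2 residual degrees of freedom, 98.0 prior degrees of freedom came from the spread shared across genes. edgeR 4.0.16 and DESeq2 1.42.0 on the recovered reads were alternatives, beside other pseudocounts, filters, scalings and variance models, a replicate block and leaving out each library. On those reads edgeR called 1869 genes higher and 2846 lower. Simulated data with known changes were used to check the limma fit.

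Gene classes and exon lengths came from GENCODE vM21, in which 15859 symbols matched 1 gene, and promoter sequences from RefSeq, GRCm38.p6. No coordinates were converted between builds. The members, lists and tests were chosen with earlier results of these data known. All 39 members are named, with the 2 called genes of smallest p of each related list and the most abundant tested gene of each marker list. Some genes that this rule takes are left out. Genes beyond these were chosen after their values were seen. By a chi-square test of their reads, replicates were farther apart than sampling alone gives (5.34 per degree of freedom in the p53 activator group, 4.64 in DMSO), so none was taken as a repeat of another.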

Additional observations from a re-analysis of the deposited data

How the results depend on the processing

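The number of the 39 genes called higher was 23 and stayed within 1.5 times of that with other pseudocounts, with no filter or a minimum of 5 CPM, with robust variances (25) and with a replicate block (31). It was 12 after quantile normalization, 14 in edgeR with TMM, 14 in DESeq2, 4 with coding genes over their summed reads, 2 with cyclic loess and 1 when the spread did not follow expression. Leaving out 1 library gave 8 to 23. The number called lower was 0, with 1 over the summed reads of coding genes and 2 with cyclic loess, and 0 in all 4 fits that left out a library. The labels do not say that a replicate number marks a shared culture or day: the deviations of same-numbered libraries correlated at 0.12 over genes tested and 0.26 over genes with a mean of at least 10 CPM, over 2 pairs, and the block added 8 calls and ended none.

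None of the 23 called genes changed sign under any alternative. Among the genes not called, signs turned as follows. After quantile normalization the log2 fold change was -0.063 for Msmo1, -0.042 for Insig2, -0.075 for Npc2 and -0.15 for Scd1. In edgeR it was -0.033 for Insig2, -0.023 for Npc2 and -0.013 for Scd1, and in DESeq2 -0.0079 for Insig2. With coding genes over their summed reads it was -0.00015 for Cyp51, -0.075 for Msmo1, -0.15 for Insig2, -0.024 for Npc1, -0.14 for Npc2 and -0.13 for Scd1. With cyclic loess it was -0.045 for Cyp51, -0.12 for Msmo1, -0.024 for Sc5d, -0.10 for Insig2, -0.11 for Npc2, -0.19 for Scd1, -0.012 for Scd2 and -0.022 for Fads2. Leaving out 1 library gave -0.13 to 0.047 for Pmvk, -0.040 to 0.037 for Lbr, -0.084 to 0.085 for Insig2, -0.016 to 0.26 for Npc1, -0.046 to 0.069 for Npc2 and -0.032 to 0.078 for Scd1. The cause of these changes was not tested. With 2 libraries a group, differences of the size seen here, mostly under 1.3-fold, were called or not with the choice of scaling and library.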

Other observations

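Fatty acid breakdown was set beside synthesis. Of 16 genes of fatty acid oxidation 2 rose and 1 fell, with a median log2 fold change of 0.05. In the same fit 16.9% of all genes tested were called higher and 16.3% lower, and 21.2% and 7.19% of coding genes. Cpt1c, the brain form of carnitine palmitoyltransferase, rose. It had 65.5 and 69.8 CPM with the activator, against 53.2 and 57.9 CPM in DMSO. Hadhb, a subunit of the mitochondrial trifunctional protein, was named after its values were seen and fell, with 13.4 and 14.3 CPM with the activator, against 19.4 and 15.6 CPM in DMSO (log2 fold change -0.31, limma adjusted p = 0.0484). Its call was lost without either p53 activator library and without DMSO replicate 1, and the call of Cpt1c without DMSO replicate 1 and without p53 activator replicate 2. The summed level of the 16 genes was 532 and 529 CPM with the activator, against 493 and 495 CPM in DMSO. edgeR called 1 of the 16 higher and 1 lower, and DESeq2 and quantile normalization called 0 either way, with 2 higher in DESeq2 at an unadjusted p under 0.05. Of 3 tested genes of oxysterol and bile acid synthesis 0 passed in limma, with 1 lower at an unadjusted p under 0.05, and 0 passed in edgeR or DESeq2.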
